A study of Rattus norvegicus with 6 samples.

Results

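A set of 40 genes of fatty acid and triglyceride synthesis, phospholipid head groups, lipid droplets and lipolysis was followed in rat liver after 2 weeks on a diet with epsilon-momfluorothrin, a pyrethroid insecticide. The genes were fixed by name, and every probe set annotated to 1 of them and to no other gene was taken, which gave 68 probe sets for all 40 genes, of 14217 genes with a probe set of their own. Of these, 56 probe sets of 39 genes were bright enough to be tested, among 15778 probe sets and 9200 genes tested in all; the gene left out was Pnpla3.

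RNA of whole liver was hybridised to 1-colour Affymetrix rat arrays, 1 per animal. The momfluorothrin group was 3 male BrlHan:WIST@Jcl(GALAS) rats fed epsilon-momfluorothrin, at 3000 ppm by the sample titles and treatment protocol and at 5000 ppm by the characteristics. The control group was 3 male rats of the same strain fed the diet at 0 ppm. All 6 animals arrived aged 4 weeks, spent 1 week in quarantine before feeding began, and were 7 weeks old at sampling. The labels give no further treatment or allele in either group.

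Hepatocytes make fatty acids from citrate-derived acetyl-CoA through acetyl-CoA carboxylase and fatty acid synthase, then desaturate, elongate and esterify them onto glycerol-3-phosphate to give triglyceride. Insulin acts on these genes largely through the transcription factor encoded by Srebf1, and glucose through the one encoded by Mlxipl. Triglyceride that is not secreted is kept in droplets coated by perilipins and CIDE proteins, and is released again by a chain of lipases.

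The arrays had array medians of 23.1 to 26.5 in the momfluorothrin group and 27.0 to 29.4 in the control group. Pairs of arrays correlated at r = 0.972 to 0.974 within the momfluorothrin group and 0.964 to 0.970 within the control group. Between groups, r was 0.958 to 0.971. The hepatocyte markers were bright in every animal, with a summed signal over 7 of 8 listed genes of 49885 to 54406 in momfluorothrin livers and 54320 to 61062 in control livers. The ranges overlapped by little, and their part in the differences below was not tested. Of the fat cell markers, 7 of 8 were on the array and Adipoq, Plin1 and Lep lay under the array median on all 6 arrays. The 7 summed to 394 to 664 in momfluorothrin livers and 220 to 316 in control livers, and the 6 other than Cidea to 90.2 to 117 in momfluorothrin livers and 89.6 to 126 in control livers. Fabp4, the fatty acid binding protein of fat cells and macrophages, had 31.7, 27.4 and 47.5 in momfluorothrin livers, against 12.9, 29.7 and 15.6 in control livers, with overlapping groups. It was dim, above the array median on 3 momfluorothrin arrays and 1 control array. Of the 5 pancreatic enzymes, Amy2a3, Prss1, Cpa1 and Cel lay under the array median on all 6 arrays. The other, Cela1, was bright on all 6 arrays, with 351, 504 and 426 in momfluorothrin livers, against 599, 470 and 552 in control livers (log2 difference -0.35 ± 0.15, unadjusted p = 0.0418 and adjusted p = 0.423 in limma). The summed ranges of macrophage, stellate cell and endothelial markers overlapped between groups. Single markers went both ways. At an unadjusted p under 0.05 in limma were 1 of 6 macrophage, 0 of 5 stellate cell and 2 of 5 endothelial markers, beside 12.2% of all genes. Clec4f (log2 difference -0.33 ± 0.13) and Eng (-0.45 ± 0.12) were lower. Lyve1 was higher, with 0.31 ± 0.14 and 0.35 ± 0.11 on 2 probe sets. None passed the adjusted threshold. In whole tissue, a change in the number of cells of a type and a change in RNA per cell cannot be told apart.

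No member passed the adjusted threshold of 0.05 in limma, where 27 of the 15778 probe sets passed (0.171%), 21 higher (0.133%) and 6 lower (0.038%). The smallest adjusted p of a member was 0.104. At an unadjusted p under 0.05 in limma, 3 member genes were higher in momfluorothrin livers (Cidec, Lpin1 and Pnpla2), against 6.05% of all genes, and 5 were lower (Lipc, Srebf1, Chka, Plin2 and Mlxipl), against 6.18% of all genes. These 8 are 20.5% of the 39 members tested, beside 12.2% of all genes in either direction. The members were chosen with earlier results of these data known, so the shares given here are descriptions and not tests. The signals of the groups did not overlap for 1 member that was higher and 5 that were lower, where 9.04% of all genes did not overlap in the higher direction and 9.23% in the lower one. By probe set, 4 were higher and 7 lower at an unadjusted p under 0.05 in limma, 19.6% of the 56 tested beside 11.6% of all probe sets. The groups did not overlap on 2 that were higher and 7 that were lower, where 17.8% of all probe sets did not overlap in either direction.

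**Figure D1:**
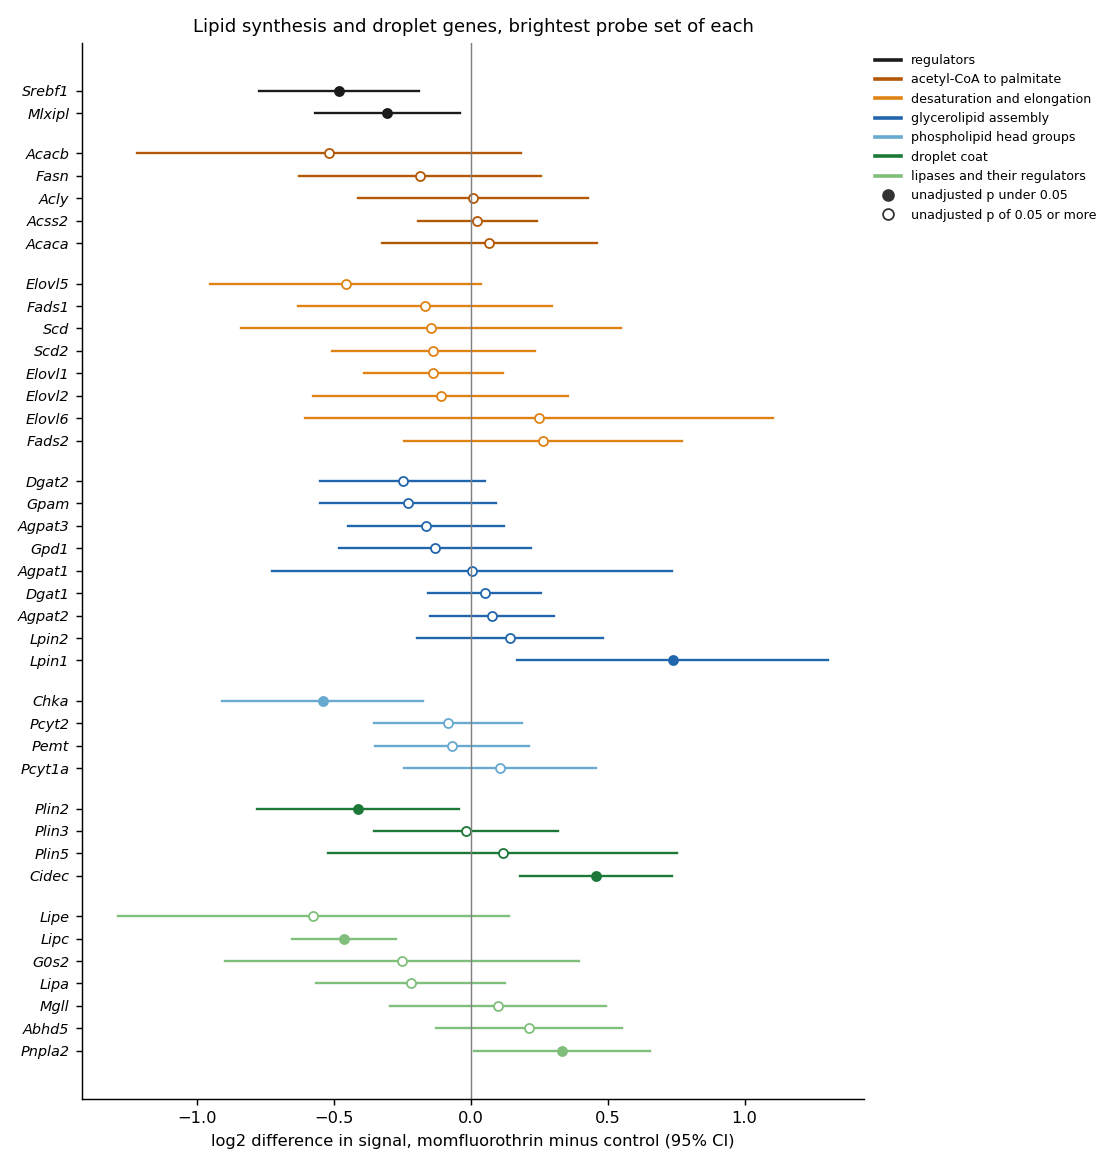
Log2 difference in signal, momfluorothrin minus control, on the horizontal axis for the brightest probe set of 39 genes, grouped by role, with 95% confidence intervals of the limma fit (3 arrays a group). Filled points have an unadjusted p under 0.05; both regulators, Chka, Plin2 and Lipc lie left of 0 and Lpin1, Cidec and Pnpla2 lie right of 0.

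Shown first are the promoters of 4 of the genes whose groups did not overlap on at least 1 tested probe set. The part of the promoters in the signals was not tested. They are the 250 bases before the start of transcription in RefSeq (rat build GRCr8), on the gene's own strand; the table held 37 such entries for 33 of the 40 genes. Capitals mark CCAAT boxes (CCAAT), GC boxes (GGGCGG) and E-boxes (CACGTG), read on both strands. Srebf1 has 2 starts in the table, the upstream one at chr10:45529165-45529414 and the downstream one at chr10:45519011-45519260, both on the minus strand. Lipc lies at chr8:80516286-80516535, minus strand, Cidec at chr4:148137116-148137365, minus strand, and Chka at chr1:210505865-210506114, plus strand.
Srebf1 upstream start: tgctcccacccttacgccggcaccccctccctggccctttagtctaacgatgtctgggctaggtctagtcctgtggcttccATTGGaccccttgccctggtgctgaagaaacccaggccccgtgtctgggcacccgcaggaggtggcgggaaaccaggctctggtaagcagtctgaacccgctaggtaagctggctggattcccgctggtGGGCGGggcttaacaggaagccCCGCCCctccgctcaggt
Srebf1 downstream start: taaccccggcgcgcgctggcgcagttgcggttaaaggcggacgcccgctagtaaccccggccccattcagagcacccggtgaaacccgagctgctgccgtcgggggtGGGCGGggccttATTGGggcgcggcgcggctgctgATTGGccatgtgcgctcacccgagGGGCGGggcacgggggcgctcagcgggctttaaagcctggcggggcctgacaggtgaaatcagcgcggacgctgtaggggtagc
Lipc: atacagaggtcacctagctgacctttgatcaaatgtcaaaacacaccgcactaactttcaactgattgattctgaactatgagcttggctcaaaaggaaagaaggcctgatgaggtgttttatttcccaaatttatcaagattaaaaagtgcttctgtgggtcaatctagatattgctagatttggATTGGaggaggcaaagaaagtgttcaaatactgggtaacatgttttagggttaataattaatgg
Cidec: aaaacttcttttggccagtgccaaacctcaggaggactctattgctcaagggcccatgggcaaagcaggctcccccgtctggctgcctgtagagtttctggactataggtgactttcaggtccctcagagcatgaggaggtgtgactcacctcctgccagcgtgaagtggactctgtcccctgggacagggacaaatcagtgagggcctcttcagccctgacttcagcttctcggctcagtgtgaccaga
Chka: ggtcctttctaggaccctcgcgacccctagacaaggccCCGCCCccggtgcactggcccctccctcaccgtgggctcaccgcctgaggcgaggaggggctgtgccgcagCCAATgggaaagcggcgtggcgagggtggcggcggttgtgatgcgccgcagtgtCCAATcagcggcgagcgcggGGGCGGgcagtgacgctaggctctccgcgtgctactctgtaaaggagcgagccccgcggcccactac

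Both Srebf1 starts hold CCAAT and GC boxes, as does the start of Chka. The Lipc sequence holds 1 CCAAT box and no GC box, and the Cidec sequence holds none of the motifs. Over the 37 member entries, 59.5% had a CCAAT box, against 35.6% of the 8559 entries of genes tested on the array, and 56.8% had a GC box, against 58.3%. The E-box was in 8.11% of member entries and in 8.39% of those of tested genes.

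Sterol response elements are the sites bound by the Srebf1 and Srebf2 proteins. The letters TCACNCCA were in 4 member entries of 3 genes (10.8% of entries, against 2.64% of the entries of tested genes and 3.24% of all 33469 entries), counting overlapping windows of 2 Mlxipl starts. Among the member entries, the longer form TCACNCCAC, which contains the shorter one, was in Pcyt1a alone (2.7% of entries, against 0.911%). Fasn, Acaca, Elovl6, Gpd1, Dgat1, Dgat2 and Lipe had no promoter entry and were not searched for any motif. The matches are shown in capitals with the bases around them, at chr12:27213767-27213824 for Mlxipl, chr11:81862497-81862555 for Pcyt1a and chr9:1210238-1210295 for Plin3, all on the minus strand.
Mlxipl: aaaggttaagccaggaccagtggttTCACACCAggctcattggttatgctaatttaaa
Pcyt1a: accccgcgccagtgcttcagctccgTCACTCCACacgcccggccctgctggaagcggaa
Plin3: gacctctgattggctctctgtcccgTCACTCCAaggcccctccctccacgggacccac

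A match is a description of letters and not a site of binding. Mlxipl was lower at an unadjusted p under 0.05, while Pcyt1a and Plin3 had 95% intervals that spanned 0.

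Both regulators had lower signals in momfluorothrin livers on every array. Srebf1, the insulin-responsive activator of lipogenic genes, had signals of 186.6, 157.1 and 164.4 in momfluorothrin livers, against 253.2, 256.4 and 202.4 in control livers. All 3 momfluorothrin arrays lay under all 3 control arrays. The log2 difference was -0.48 ± 0.13 (SE, n = 3 each, unadjusted p = 0.00461 and adjusted p = 0.225 in limma).

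The second Srebf1 probe set was measured separately and read 89.3, 87.8 and 84.2 in momfluorothrin livers, against 116, 142 and 103 in control livers. Its log2 difference of -0.45 ± 0.14 was close to that of the first (adjusted p = 0.292 in limma), and again the groups did not overlap. Mlxipl, which encodes the carbohydrate response factor, had 101, 110 and 118 in momfluorothrin livers, against 145, 132 and 129 in control livers. Its groups did not overlap either, with a log2 difference of -0.31 ± 0.12 (unadjusted p = 0.0282 and adjusted p = 0.384 in limma). The unadjusted p in limma stayed under 0.05 in 9 of 15 alternatives and rose to 0.0946 at most. It was 0.0557 with median centring and 0.0552 with the replicate block. It was also not under 0.05 without replicate 1 or without replicate 2 of either group, each left out alone.

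None of the 5 genes that lead from acetyl units to palmitate reached an unadjusted p of 0.05, and their median log2 difference was 0.01. Acly, which splits citrate into acetyl-CoA, averaged 354 ± 50.8 in momfluorothrin livers and 358 ± 99.6 in control livers (SD, n = 3 each), a log2 difference of 0.01 with a 95% interval of -0.41 to 0.43. Acss2, which activates acetate, averaged 272 ± 7.35 in momfluorothrin livers and 268 ± 18.7 in control livers, with an interval of -0.19 to 0.24. The groups overlapped for both, and Acss2 was the more tightly bounded.

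Fasn, the fatty acid synthase, had signals of 84.2, 89.2 and 81.5 in momfluorothrin livers, against 127, 72.4 and 98.0 in control livers. The 3 momfluorothrin arrays fell inside the range of the controls, with a log2 difference of -0.19 ± 0.19 (adjusted p = 0.744 in limma). A dimmer Fasn probe set gave -0.54 ± 0.41. Acaca, the cytosolic acetyl-CoA carboxylase, gave 0.07 ± 0.17 on its brighter probe set and -0.21 ± 0.23 on the other. Acacb, the carboxylase whose malonyl-CoA restrains mitochondrial fatty acid import, was near the array median and gave -0.52 ± 0.31 (adjusted p = 0.557 in limma).

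Among the 8 desaturases and elongases, 6 had a negative and 2 a positive log2 difference, with a median of -0.14, and none reached an unadjusted p of 0.05 on its brightest probe set. Elovl5, which elongates polyunsaturated fatty acids, differed between its probe sets. The brighter probe set read 936, 1068 and 1142 in momfluorothrin livers, against 1879, 1639 and 958 in control livers. The third control animal lay within the momfluorothrin range and the other controls well above it, and the log2 difference was -0.46 ± 0.22 (adjusted p = 0.468 in limma).

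The dimmer Elovl5 probe set read 101, 110 and 109 in momfluorothrin livers, against 260, 239 and 141 in control livers. Here the groups did not overlap, and the log2 difference of -0.95 ± 0.21 was the lowest of the 56 member probe sets tested (unadjusted p = 0.00162 and adjusted p = 0.168 in limma). Without control replicate 3 it was -1.22 and passed the threshold (adjusted p = 0.0177 in limma), and it did not pass without any 1 of the other arrays. Among the member entries, those of Elovl5, Mgll and Plin2 held an E-box, and the part of this motif in the signals was not tested. The Elovl5 E-box lies in the promoter window chr8:87670927-87670982, plus strand, shown in capitals.
Elovl5: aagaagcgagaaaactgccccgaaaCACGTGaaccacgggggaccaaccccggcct

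Scd, the stearoyl-CoA desaturase that makes oleate, had signals of 1073, 1993 and 1659 in momfluorothrin livers, against 2375, 1938 and 1045 in control livers. Both groups ran over about the same range, and the log2 difference was -0.15 ± 0.31 with a 95% interval of -0.84 to 0.55. Fads2, the first desaturase of polyunsaturated fatty acid synthesis, averaged 756 ± 78.7 in momfluorothrin livers and 656 ± 244 in control livers (log2 difference 0.26 ± 0.22, adjusted p = 0.679 in limma). Fads1, which acts after it, gave -0.17 ± 0.21, Elovl2 -0.11 ± 0.21, Elovl1 -0.14 ± 0.11 and Scd2 -0.14 ± 0.16. Elovl6, which lengthens palmitate, was near the array median at 37.5 ± 12.5 in momfluorothrin livers and 31.9 ± 12.2 in control livers.

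**Figure D2:**
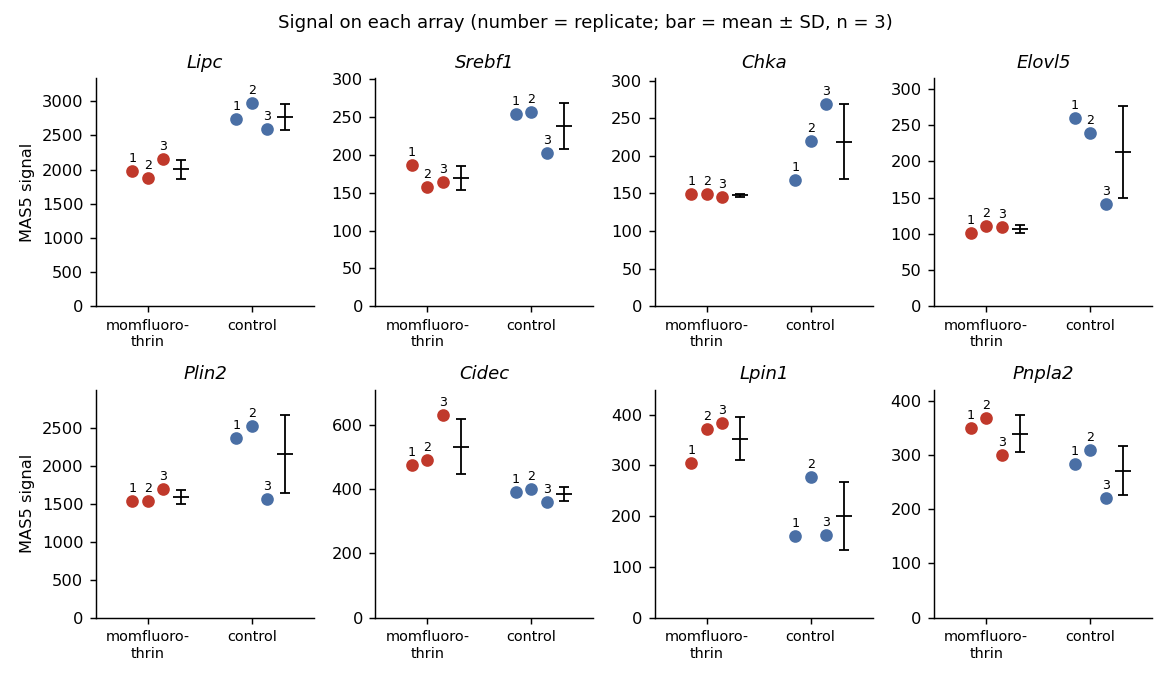
MAS5 signal on each array for 8 probe sets, momfluorothrin on the left and control on the right of each panel; numbers are replicates and bars are mean ± SD of 3 arrays. Elovl5 and Lpin1 are each shown by the dimmer probe set; control replicate 3 is the lowest control for Lipc, Srebf1, Elovl5, Plin2, Cidec and Pnpla2, and the highest for Chka.

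In glycerolipid assembly, 1 of 9 genes was higher at an unadjusted p under 0.05 and none was lower. Lpin1, a phosphatidate phosphatase that makes diacylglycerol and also acts as a transcriptional coactivator, had the highest log2 difference of all members on its brightest probe set. That probe set read 529, 631 and 560 in momfluorothrin livers, against 292, 550 and 252 in control livers. Control replicate 2 lay within the momfluorothrin range and the other controls far under it, with a log2 difference of 0.74 ± 0.25 (unadjusted p = 0.0167 and adjusted p = 0.329 in limma). This p stayed under 0.05 in 12 of 15 alternatives and was 0.0624 without control replicate 1, 0.0629 without control replicate 3 and 0.054 without momfluorothrin replicate 2.

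A second Lpin1 probe set read 304, 371 and 383 in momfluorothrin livers, against 161, 278 and 164 in control livers. The groups did not overlap, and the difference was 0.85 ± 0.21 (unadjusted p = 0.00267 and adjusted p = 0.198 in limma). Without control replicate 2 the 2 probe sets had log2 differences of 1.08 and 1.11 and both passed the threshold (adjusted p = 0.0322 and 0.0378 in limma), and neither passed without any 1 of the other arrays. Lpin2, a phosphatase of the same family, averaged 149 ± 17.1 in momfluorothrin livers and 135 ± 20.7 in control livers, a log2 difference of 0.14 ± 0.15.

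The enzymes on either side of the lipins had small differences. Dgat2, which adds the last fatty acid to newly made triglyceride in liver, had 1566, 1262 and 1644 in momfluorothrin livers, against 1558, 2081 and 1681 in control livers. The groups overlapped, with a log2 difference of -0.25 ± 0.13 on this probe set and -0.20 ± 0.12 on a second one (adjusted p = 0.512 and 0.542 in limma). Dgat1, the other acyltransferase of that step, was tight in both groups at 316 ± 7.66 in momfluorothrin livers and 306 ± 17.1 in control livers, with a 95% interval of -0.16 to 0.26 for the log2 difference.

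Gpam, the mitochondrial glycerol-3-phosphate acyltransferase that starts the pathway, gave -0.23 ± 0.14 and -0.14 ± 0.14 on 2 probe sets. Agpat3, an acyltransferase of the next step, had 69.1, 78.6 and 69.1 in momfluorothrin livers, against 80.5, 81.2 and 80.9 in control livers. The groups did not overlap on this probe set, yet the log2 difference was only -0.17 ± 0.13 (adjusted p = 0.649 in limma), and 2 further probe sets of Agpat3 gave 0.07 ± 0.29 and -0.29 ± 0.31. Agpat2, the most prominent acyltransferase of this step in liver and fat, gave 0.08 ± 0.10 and Agpat1, near the array median, 0.00 ± 0.32. Gpd1, which makes glycerol-3-phosphate, averaged 1745 ± 66.8 in momfluorothrin livers and 1949 ± 442 in control livers.

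Of the 4 genes that build phosphatidylcholine and phosphatidylethanolamine, Chka alone stood apart. Chka, a choline kinase that starts the choline branch, had 149, 149 and 145 in momfluorothrin livers, against 168, 220 and 269 in control livers. The groups did not overlap and the momfluorothrin arrays lay closer together than the controls, with a log2 difference of -0.54 ± 0.16 (unadjusted p = 0.00878 and adjusted p = 0.272 in limma). Pcyt1a, the rate-limiting enzyme of that branch, gave 0.11 ± 0.15 on its brighter and -0.29 ± 0.17 on its dimmer probe set, a pair that disagree in sign. Pcyt2, its counterpart in the ethanolamine branch, gave -0.08 ± 0.12, and Pemt, which methylates phosphatidylethanolamine to phosphatidylcholine in liver, -0.07 ± 0.12.

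The droplet coat genes did not share a direction. Cidec, which joins small droplets into larger ones, had signals of 473.3, 490.4 and 630.1 in momfluorothrin livers, against 391.8, 400.9 and 359.8 in control livers. All 3 momfluorothrin arrays lay above all 3 control arrays, with a log2 difference of 0.46 ± 0.12, or 1.37-fold (unadjusted p = 0.00473 and adjusted p = 0.227 in limma). Fat cells also express Cidec. Of the fat cell markers on the array, Cidea and Fabp4 were higher at an unadjusted p under 0.05 in limma. Their log2 differences were 1.46 ± 0.27 and 0.93 ± 0.38, and Cfd gave -0.36 ± 0.20. Fabp4 lay above the array median on 3 momfluorothrin arrays but only 1 control array. The momfluorothrin arrays alone met the filter for Fabp4, so its p is a description and no support for a change. Plin4, too dim to be tested, had 20.3, 20.5 and 19.0 in momfluorothrin livers, against 23.3, 30.4 and 30.5 in control livers. Adipoq, Plin1 and Lep were under the array median on all 6 arrays. The part of these markers in the difference of Cidec was not tested.

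Plin2, the main droplet coat protein of hepatocytes, had 1529, 1536 and 1695 in momfluorothrin livers, against 2369, 2524.5 and 1568 in control livers. The third control lay inside the momfluorothrin range, with a log2 difference of -0.41 ± 0.16 (unadjusted p = 0.0324 and adjusted p = 0.399 in limma). The unadjusted p in limma stayed under 0.05 in 8 of 15 alternatives and rose to 0.118 at most. It was 0.0513 with median centring and 0.0724 with no intensity trend. It was also not under 0.05 with the mean of its probe sets, or without replicate 1 or replicate 2 of either group. The log2 difference ran from -0.63 without control replicate 3 to -0.17 with the mean of its probe sets. A dimmer Plin2 probe set did not share this difference and gave 0.06 ± 0.18 with a 95% interval of -0.35 to 0.48. Plin3, a perilipin found in many tissues, gave -0.02 ± 0.15, and Plin5, a perilipin of oxidative tissues that was dim here, 0.12 ± 0.28.

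Among lipases, the gene with the smallest p of all members was Lipc, the hepatic lipase that hepatocytes secrete to act on lipoprotein lipids. Lipc had signals of 1985, 1881 and 2155.5 in momfluorothrin livers, against 2740, 2973 and 2591 in control livers. The groups were well separated and tight, at 2007 ± 139 and 2768 ± 192 (SD, n = 3 each). The log2 difference was -0.46 ± 0.08, with a 95% interval of -0.65 to -0.27 and an unadjusted p of 0.000397, and it did not pass over all probe sets (adjusted p = 0.104 in limma).

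Pnpla2, the adipose triglyceride lipase that starts droplet lipolysis, had 349, 368 and 300 in momfluorothrin livers, against 283, 309 and 221 in control livers. The groups overlapped by 1 array a side, with a log2 difference of 0.33 ± 0.14 (unadjusted p = 0.0441 and adjusted p = 0.426 in limma). That p stayed under 0.05 in 9 of 15 alternatives and was 0.0632 with quantile normalization and 0.154 without control replicate 3, where the log2 difference was 0.19. Its coactivator Abhd5 gave 0.21 ± 0.15 and 0.09 ± 0.18 on 2 probe sets. Its inhibitor G0s2 averaged 1757 ± 535 in momfluorothrin livers and 2110 ± 700 in control livers, a log2 difference of -0.25 ± 0.28. The 95% intervals of Abhd5 and G0s2 spanned 0.

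Lipe, the hormone-sensitive lipase that follows Pnpla2 in fat cells, had 2 dim probe sets that disagreed in sign, at -0.58 ± 0.31 and 0.98 ± 0.63. The second read 41.5, 38.6 and 39.5 in momfluorothrin livers, against 33.9, 40.4 and 6.08 in control livers. Its log2 difference was 0.11 without control replicate 3, and that of the first was -0.19 without momfluorothrin replicate 3. Lipa, the lysosomal acid lipase, averaged 1161 ± 119 in momfluorothrin livers and 1369 ± 298 in control livers (log2 difference -0.22 ± 0.15). Mgll, which cleaves the last fatty acid off monoacylglycerol, gave 0.10 ± 0.17, 0.36 ± 0.35 and 0.07 ± 0.16 on 3 probe sets. Pnpla3, a droplet protein related to Pnpla2, had 3 probe sets, all under the array median on every array and with a highest signal of 10.9, and was not tested.

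By class, the median log2 difference was -0.14 over 15 fatty acid synthesis genes with their regulators, -0.07 over 13 glycerolipid and phospholipid genes and -0.02 over 11 droplet and lipolysis genes, beside -0.01 over all genes. The signs were negative for 10 of 15, 7 of 13 and 6 of 11 genes of these classes, and for 52.5% of all genes. The sign of each class median changed in some setting. Without control replicate 1 that of fatty acid synthesis was 0.01, without control replicate 2 that of glycerolipid genes was 0.02, and with the mean of a gene's probe sets that of droplet and lipolysis genes was 0.12. Median centring gave 0.02 for the last class. Where 15 genes had several tested probe sets, all probe sets of the gene had 1 sign for 9 of them; Acaca, Agpat3, Lpin2, Pcyt1a, Plin2 and Lipe were the others.

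**Figure D3:**
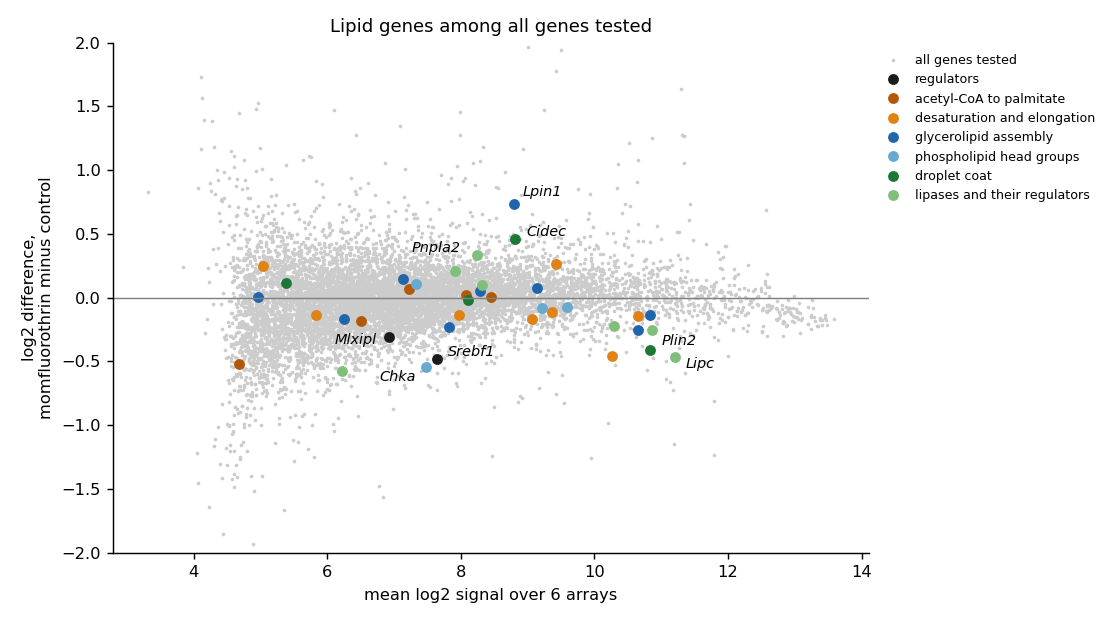
Log2 difference, momfluorothrin minus control, against mean log2 signal over 6 arrays for 9200 genes (grey) and 39 lipid genes coloured by role; names mark an unadjusted p under 0.05. The lipid genes lie within the cloud of all genes, and the 8 with a mean log2 signal over 10 all lie under 0; 11 genes fall outside the plotted range of -2 to 2.

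The share of negative members had no steady order over signal strength. All 8 members with a mean log2 signal over 10 (Lipc, G0s2, Plin2, Gpd1, Dgat2, Scd, Lipa and Elovl5) had a negative log2 difference, with a median of -0.25. Of the 732 genes in that range, 48.4% were negative, with a median of 0.00, and 10.4% were lower at an unadjusted p under 0.05. Of the 14 members with a mean log2 signal of 8 to 10, 5 were negative, with a median of 0.04. Over all genes there, 40.8% were negative, with a median of 0.04. Of the 12 members from 6 to 8, 8 were negative, with a median of -0.18 (52.6% of all genes there). Of the 5 dimmest members, under 6, 2 were negative, beside 62.4% of all genes there. The part of signal strength in the differences was not tested.

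The control animals differed among themselves in these genes more than the momfluorothrin animals did. The median SD of log2 signal over the 39 members was 0.15 in the momfluorothrin group and 0.25 in the control group, while over all genes it was 0.15 and 0.16. The SD was larger in the controls for 28 of 39 members (71.8%) and for 51.7% of all genes. Among fatty acid synthesis genes it was larger in the controls for 13 of 15, at a median of 0.15 in the momfluorothrin group and 0.38 in the control group. These shares describe 3 animals a group, and the members share those animals.

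**Figure D4:**
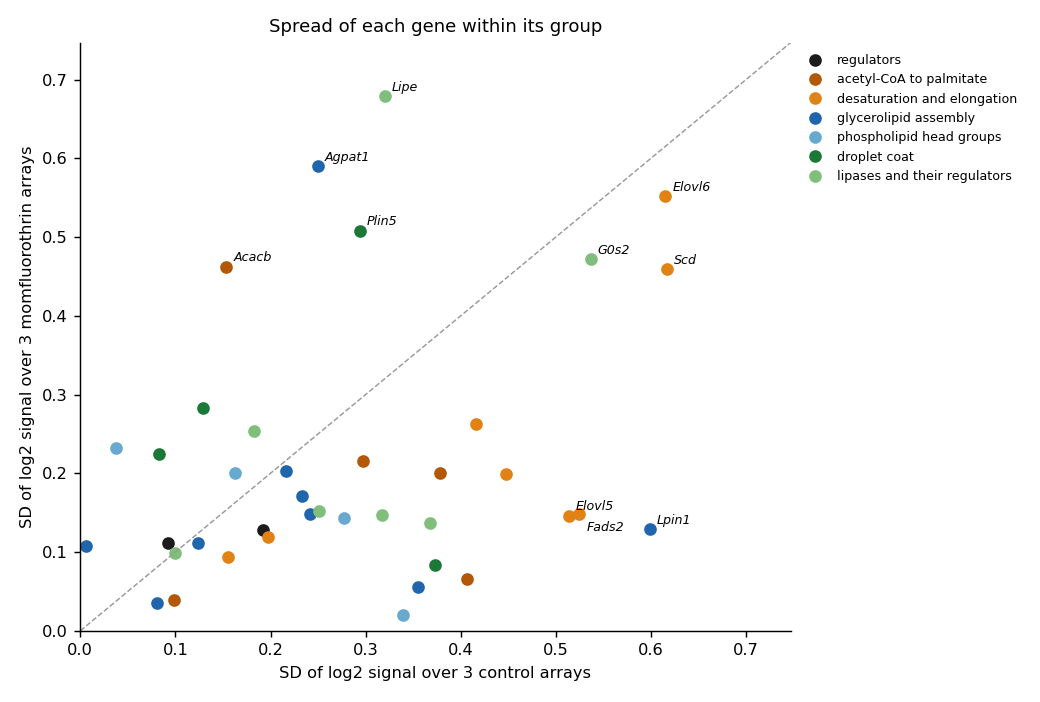
SD of log2 signal over the 3 momfluorothrin arrays (vertical axis) against that over the 3 control arrays (horizontal axis) for 39 genes, coloured by role; the dashed line marks equal SDs. 28 genes lie under the line, Lpin1, Fads2 and Elovl5 farthest from it, and Agpat1, Lipe, Plin5 and Acacb, all with mean signals under 100 in both groups, are the highest above it.

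Control replicate 3 was the lowest of the 3 controls for 26 of 39 members (66.7%), where it was the lowest for 33% of all genes. It was chosen for description after the values were seen. For fatty acid synthesis genes it was the lowest in 11 of 15, for droplet and lipolysis genes in 9 of 11 and for glycerolipid genes in 6 of 13. Against the mean of the other two controls, its log2 signal was lower by a median of 0.23 over the members (-0.23), with -1.04 for Scd, -1.02 for Elovl6, -0.91 for G0s2, -0.87 for Elovl5 and -0.64 for Plin2. The same median was 0.02 over all genes.

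As a class level, the median over fatty acid synthesis genes of log2 signal minus each gene's mean was -0.10, -0.02 and -0.05 on the momfluorothrin arrays, against 0.29, 0.12 and -0.24 on the control arrays. The momfluorothrin animals lay between control replicate 3 and the other controls. Droplet and lipolysis genes were arranged the same way, with -0.01, 0.00 and -0.06 on the momfluorothrin arrays, against 0.16, 0.12 and -0.22 on the control arrays. Glycerolipid genes had -0.04, -0.05 and 0.03 on the momfluorothrin arrays, against -0.03, 0.21 and -0.09 on the control arrays, with control replicate 2 highest. No label gives a reason for the spread, a batch or a time of sampling.

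**Figure D5:**
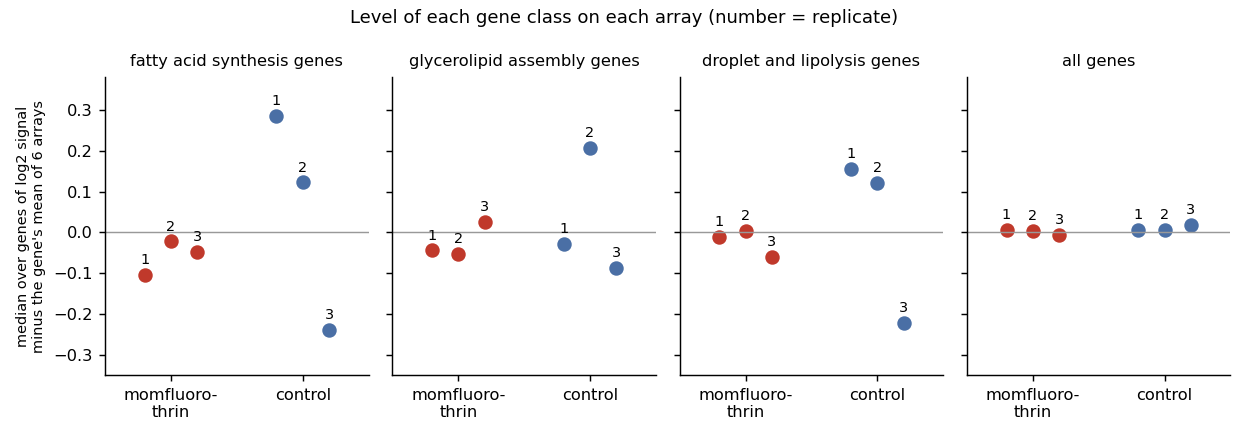
Median over the genes of a class of log2 signal minus the gene's mean over 6 arrays, for each array, momfluorothrin on the left and control on the right; numbers are replicates. Control replicate 3 is lowest in each of the 3 lipid classes and the all-gene panel is flat.

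The counts of members changed with the array left out, in either group. Without control replicate 3, 11 members were lower at an unadjusted p under 0.05 in limma, adding Elovl2, Elovl5, G0s2, Gpam, Gpd1 and Lipa to the 5, and only Cidec was higher; in that fit 5.14% of all genes were lower and 6.12% higher. Without control replicate 1, 1 member was higher and 4 lower, where 5.35% of all genes were higher and 5.45% lower. Without control replicate 2, 4 were higher and 4 lower, where 5.29% of all genes were higher and 4.83% lower. Without momfluorothrin replicate 2, only Cidec was higher, and Chka, Lipc and Srebf1 were lower. Without momfluorothrin replicate 1, Cidec and Lpin1 were higher, and Acacb, Chka, Lipc, Lipe and Srebf1 were lower. Without momfluorothrin replicate 3, the calls were those of the full fit. Over the fits that left out 1 array, 4.21 to 6.12% of all genes were higher and 4.27 to 6.28% lower. Lipc, Srebf1, Chka and Cidec kept an unadjusted p under 0.05 and their direction in all 15 alternatives computed, with adjusted p of 0.0623 to 0.561 over these. The log2 difference of Lipc ran from -0.52 to -0.41, that of Srebf1 from -0.59 to -0.42, that of Chka from -0.72 to -0.38 and that of Cidec from 0.33 to 0.53.

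Of 66 other genes of the pathway, 59 were on the array and 52 were tested. None passed the adjusted threshold, and at an unadjusted p under 0.05 in limma 4 were higher and 5 lower, 17.3% of those tested beside 12.2% of all genes. This list, too, was chosen with earlier results of these data known. Cidea, a droplet protein of the same family as Cidec, had 304, 447 and 547 in momfluorothrin livers, against 226, 114 and 140 in control livers. The groups did not overlap, with a log2 difference of 1.46 ± 0.27 (unadjusted p = 0.000487 and adjusted p = 0.107 in limma).

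Acsl5, which activates fatty acids to acyl-CoA, had 478, 611 and 507 in momfluorothrin livers, against 948, 1111 and 673 in control livers, with no overlap and a log2 difference of -0.75 ± 0.18 (adjusted p = 0.182 in limma). Its second probe set gave -0.42 ± 0.20. Ces1d, a liver carboxylesterase with triglyceride hydrolase activity, averaged 5511 ± 173 in momfluorothrin livers and 4609 ± 130 in control livers (SD, n = 3 each), a log2 difference of 0.26 ± 0.06 (adjusted p = 0.209 in limma). Over the 52 neighbours, control replicate 3 was the lowest control for 48.1%, and the SD was larger in the controls for 61.5%.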

How the data were processed

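Each of the 6 livers gave 1 array, and groups and replicate numbers were taken from the sample titles. The authors deposited MAS5 intensities on a linear scale (tool named per the submitters' processing notes). The MAS5 version is not given in the sources used here. Each array had a trimmed mean of 100 with 2% left off at each end, so no scaling was added. The table held no detection calls, and the number of arrays limits the precision.

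Of 31099 probe sets, 57 Affymetrix controls were left out, and a probe set was tested if it lay above the median of the array on 3 or more of the 6. Symbols came from GEO's platform annotation (20826 probe sets with 1 symbol, 436 with several, 9780 with none; 20758 matched by gene ID to the RefSeq table of GRCr8, used for names). A gene was represented by its brightest tested probe set. The log2 of the signal (pseudocount 0) was fitted in limma 3.58.1 under R 4.3.3 (eBayes with an intensity trend, 2-sided, Benjamini-Hochberg over all tested probe sets, threshold 0.05). Differences are momfluorothrin minus control with their SE and 95% interval. Class medians and spreads carry no test.

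The members and lists were chosen with earlier results of these data known. The text names, by role, the 4 genes with the smallest p, plus Srebf1, Mlxipl, Fasn, Scd, Dgat2, Plin2 and Pnpla2, with 3 neighbours; other members are given by their values. The fit was tested on simulated arrays. Alternatives changed the filter, scaling, pseudocount (16), variance model, array weights, replicate block and probe set rule, and left out each array.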

Additional observations from a re-analysis of the deposited data

How the results depend on the processing

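No member probe set passed the adjusted threshold in any alternative that kept all 6 arrays. Leaving out 1 array gave 0 to 2 such probe sets (2 of Lpin1 without control replicate 2, 1 of Elovl5 without control replicate 3), 1 to 4 members higher and 3 to 11 lower at an unadjusted p under 0.05 in limma (4.21 to 6.12% of all genes higher, 4.27 to 6.28% lower), and 5 to 28 probe sets past the threshold over the whole array, with 5 without momfluorothrin replicate 2, 8 without replicate 3 and 16 without replicate 1. Median centring left 3 members lower, without Plin2 and Mlxipl. Without an intensity trend 3 probe sets of the whole array passed. The replicate block left 15, no member among them, with 3 members higher and 5 lower (G0s2 in place of Mlxipl). Same-numbered arrays had deviations that correlated at -0.10, 0.10 and -0.06 over probe sets. Pairs of unlike number ran from -0.068 (momfluorothrin replicate 3 with control replicate 2) to 0.145 (momfluorothrin replicate 3 with control replicate 1). With 3 arrays a group, these values cannot decide whether the numbers pair the animals. The median log2 difference of all genes was 0.01 under quantile normalization and 0.02 under median centring.

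Of 564 values of named probe sets under alternatives, 537 kept direction and side of the threshold, 3 passed it newly and 24 reversed, in 13 probe sets. Median centring gave Plin3 0.017, array weights gave an Agpat3 probe set -0.000384, and the mean of probe sets gave Acaca -0.069, Pcyt1a -0.091 and Lipe 0.20. Over arrays left out, log2 differences ran from -0.10 to 0.17 for Acaca, -0.010 to 0.080 for Acss2, -0.22 to 0.41 and -0.52 to 0.015 for 2 Agpat3 probe sets, -0.39 to 0.011 for Fasn, -0.038 to 0.24 for Pcyt1a, -0.21 to 0.026 for Pcyt2, -0.17 to 0.026 for Pemt, -0.11 to 0.26 for the dimmer Plin2 probe set, -0.18 to 0.076 for Plin3, -0.055 to 0.41 for Plin5 and -0.49 to 0.11 for Scd. The cause of these shifts was not tested. Dim probe sets (Acacb, Agpat1, Elovl6, Lipe, Plin5) have intervals too wide to show changes of the size seen in Lipc (-0.46). The same holds for some bright ones. Their intervals were -0.84 to 0.55 for Scd, -0.90 to 0.39 for G0s2, -0.63 to 0.30 for Fads1 and -0.58 to 0.35 for Elovl2. Others were tighter, such as Acss2 (-0.19 to 0.24) and Dgat1 (-0.16 to 0.26). The median half-width of the interval was 0.44 over fatty acid synthesis genes, beside 0.33 over all genes.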

Other observations

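The SREBP partner genes Insig1 and Insig2, which hold the sterol-sensing complex in the endoplasmic reticulum, were described after their values were seen. Insig2 had 3095, 3166 and 3657 in momfluorothrin livers, against 4295, 4196 and 3942 in control livers, a log2 difference of -0.33 ± 0.08 (adjusted p = 0.215 in limma). A second Insig2 probe set gave -0.45 ± 0.10 (adjusted p = 0.144 in limma), and the groups did not overlap on either. Insig1 pointed the other way, with 736, 1652 and 1286 in momfluorothrin livers, against 735, 916 and 394 in control livers, a log2 difference of 0.85 ± 0.34 with overlapping groups (adjusted p = 0.409 in limma). Me1, the malic enzyme that supplies NADPH for fatty acid synthesis, had 315, 327 and 345 in momfluorothrin livers, against 203, 291 and 121 in control livers (log2 difference 0.77 ± 0.26, adjusted p = 0.333 in limma), and a second probe set gave 0.54 ± 0.34 with overlap. Control replicate 3 had the lowest control signal for Insig1, Me1 and Insig2, on each of their tested probe sets, as it had for 11 of 15 fatty acid synthesis genes.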
